A study of Mus musculus with 9 samples.

Results

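The genes of oxidative phosphorylation were followed through single-cell RNA sequencing of CD11b+ cells from adult mouse brain. Members were taken by symbol: every gene beginning with Nduf, Sdh, Uqcr, Cox4, Cox5, Cox6, Cox7, Cox8 or Atp5 made up a nuclear group, and every gene beginning with mt- a mitochondrial group. The files listed 110 such genes among 31053, with 97 entries in the nuclear group and 13 in the mt- group. The nuclear entries comprised 36 genes of complex I, 4 of complex II, 8 of complex III, 20 of complex IV, 16 of complex V and 13 assembly factors. Atp5o is listed under 2 identifiers, of which ENSMUSG00000022956 carried all of its counts and is the one meant below. The mt- genes comprised 7 subunits of complex I, 1 of complex III, 3 of complex IV and 2 of complex V. On the GRCm38 annotation the mt- genes lie on the mitochondrial chromosome and the nuclear members are spread over 19 chromosomes.

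The respiratory chain sits in the inner mitochondrial membrane. Complexes I and II pass electrons from NADH and succinate to ubiquinone, complex III passes them to cytochrome c and complex IV to oxygen, and complex V, the ATP synthase, uses the proton gradient that results. Most subunits are encoded in the nucleus and imported, whereas the mitochondrial genome encodes core subunits of every complex except complex II, so that the chain draws on 2 genomes that are transcribed by separate machineries. Microglia are the resident macrophages of the brain and depend on the receptor CSF1R for survival.

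The 9 libraries came from female C57BL/6 mice of 5 months (C57BL/6J in the study's methods). Ctrl mice were untreated (3 libraries, 1 brain each), D0 mice had received the CSF1R inhibitor PLX5622 at 1200 mg/kg of diet for 14 days (3 libraries, 2 pooled brains each), and D2 mice had been returned to control diet for 2 days after that (3 libraries, 2 pooled brains each). The study reports that the PLX5622 diet removed most CD11b+ cells of the brain, so D0 cells are those that remained. A member said below to rise at D0 was higher in these cells than in Ctrl cells. Live CD11b+ cells were sorted from brains without cerebellum after myelin removal, so every cell had passed through dissociation and sorting. The study left out library D2-3, which is given here apart from the others, and D2 therefore rests on 2 libraries.

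Of 36391 barcodes, 30464 had 500 to 20000 UMIs (unique molecular identifiers, each tagging 1 captured transcript) and at most 10% of UMIs in mt- genes, and 28656 of these lay in the 8 libraries compared. The kept cells held 16469668 to 44754200 UMIs per library, with a median of 4809.5 to 9243 per cell. The limit on mt- genes uses one of the groups described here and removed 2.61% to 12.1% of the barcodes within the UMI range of a library. Every one of the 36 pairs of libraries shared between 1 and 8 barcodes. Ctrl-1 stood apart from the other Ctrl libraries. The chi-square per degree of freedom between library sums was 73.4 and 78.2 for the pairs with Ctrl-1 and 5.85 for Ctrl-2 against Ctrl-3. Among the D0 libraries it was 57.8 and 51.0 for the pairs with D0-1 and 25.4 for D0-2 against D0-3. By the file headers, Ctrl-1 had been processed with Cell Ranger 3.0.2 like every D0 library, D2-1 and D2-2, and the remaining libraries with 3.1.0. Ctrl-1 is therefore the only Ctrl library with the version of the treated libraries compared. Whether the version had a part in the distance of Ctrl-1 was not tested. Cells were grouped by clusters drawn without any member gene and named from marker lists. This gave 21087 non-dividing microglia-like cells in the 8 libraries and 1624 dividing ones in the D0 and D2 libraries among them.

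The promoters of Atp5g2, Uqcrh, Cox6a1 and Atp5c1 are shown because these genes rose at D0 and carry a motif of a factor known to bind promoters of respiratory genes, the nuclear respiratory factor NRF1 or the ETS-family factor GABP (NRF2). They were picked after the values were seen. The motifs searched on both strands of the 250 bases before the start were GCGC, any base and TGCGC in a row for NRF1 and CCGGAAG for ETS, which do not overlap each other in these windows. Sequences are from RefSeq on GRCm38.p6, 5′ to 3′ on the minus strand, where all of these genes lie, and capitals mark the matches. The windows are chr15:102671048-102671297 (Atp5g2), chr4:116075071-116075320 (Uqcrh), chr5:115348959-115349208 (Cox6a1) and chr2:10080433-10080682 (Atp5c1). The Atp5g2 window lies wholly inside the gene as annotated, before a RefSeq start internal to it. Those of Cox6a1 and Atp5c1 lie partly inside their genes.
Atp5g2: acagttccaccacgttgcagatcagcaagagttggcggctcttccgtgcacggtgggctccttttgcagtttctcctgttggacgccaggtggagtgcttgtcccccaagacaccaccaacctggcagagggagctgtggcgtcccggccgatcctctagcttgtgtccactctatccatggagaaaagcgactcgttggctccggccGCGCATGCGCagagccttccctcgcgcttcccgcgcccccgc
Uqcrh: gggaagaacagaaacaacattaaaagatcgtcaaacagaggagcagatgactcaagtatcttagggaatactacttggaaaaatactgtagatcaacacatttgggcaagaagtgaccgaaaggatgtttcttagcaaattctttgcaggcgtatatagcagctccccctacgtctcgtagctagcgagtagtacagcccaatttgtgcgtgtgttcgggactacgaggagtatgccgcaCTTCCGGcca
Cox6a1: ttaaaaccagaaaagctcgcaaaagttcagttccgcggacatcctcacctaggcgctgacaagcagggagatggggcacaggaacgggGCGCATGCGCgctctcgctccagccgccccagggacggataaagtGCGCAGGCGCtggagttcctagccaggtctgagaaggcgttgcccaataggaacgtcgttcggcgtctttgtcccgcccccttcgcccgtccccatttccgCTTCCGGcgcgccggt
Atp5c1: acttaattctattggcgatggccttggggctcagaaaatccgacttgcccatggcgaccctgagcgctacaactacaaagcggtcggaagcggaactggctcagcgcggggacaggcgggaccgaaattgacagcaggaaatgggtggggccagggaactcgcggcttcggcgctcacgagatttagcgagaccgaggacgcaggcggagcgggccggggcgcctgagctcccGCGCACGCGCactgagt
In Atp5g2 and Atp5c1 the NRF1 match ended 33 and 8 bases before the start, in Uqcrh the ETS match ended 4 bases before it, and Cox6a1 held 2 NRF1 matches and an ETS match that ended 10 bases before it. A promoter entry was found for 79 nuclear members and not for 18. The NRF1 letters occurred in 17.7% of the 79 and in 3.74% of all 32851 promoter windows, and the ETS letters in 20.3% and 6.91%. Members that rose at D0 (described further on) held NRF1 letters in 14.7% and ETS letters in 26.5% of 34 windows, against 21.4% and 16.7% of 42 windows of tested members that did not pass. These shares describe letters in a window and not sites in use.

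Non-dividing microglia gave a larger share of their transcripts to the nuclear group at D0 and D2 than in Ctrl, while the mt- group overlapped between conditions. The nuclear group took 1.15%, 1.19% and 1.16% of UMIs in the Ctrl libraries, 1.42%, 1.52% and 1.53% at D0, and 1.37% and 1.504% at D2. No treated library reached the Ctrl range. Whether the share changed within cells or through the loss of cells with a smaller share was not tested. The mt- group took 1.87%, 3.18% and 2.88% in Ctrl, 2.99%, 2.90% and 2.76% at D0, and 2.77% and 3.42% at D2. Here Ctrl-1 lay below every other library, and the remaining Ctrl libraries fell among the treated ones. Among libraries with the same Cell Ranger version, Ctrl-1 was below all D0 and D2 libraries in both groups, but that comparison has only 1 Ctrl library.

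**Figure D1:**
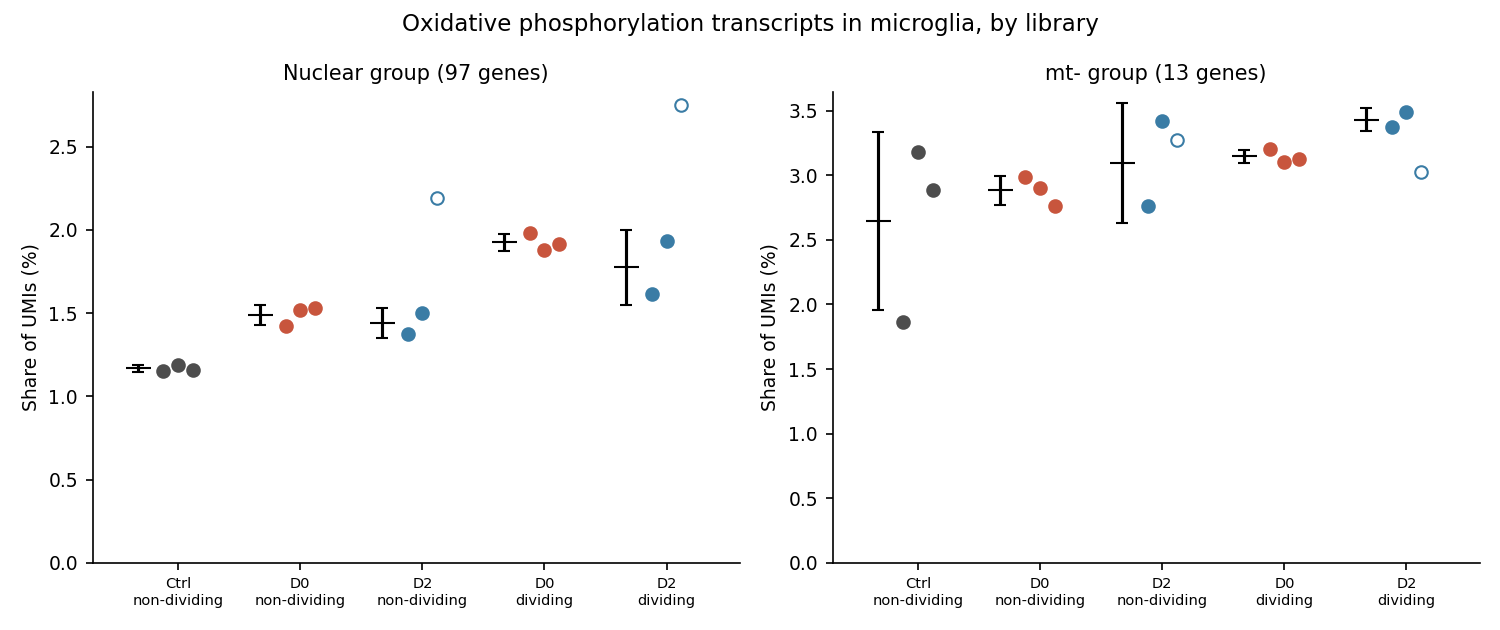
Share of UMIs (%) in the nuclear and mt- groups, 1 point per library, for non-dividing and dividing microglia, with the mean and SD of each condition; the open symbol is D2-3, which is not in the means. In non-dividing microglia the nuclear share was 1.17 ± 0.0192% in Ctrl, 1.49 ± 0.0597% at D0 and 1.44 ± 0.0912% at D2 (SD, n = 3, 3 and 2).

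By complex, the subunits of complexes I, III, IV and V took a larger share of UMIs in every D0 library than in any Ctrl library, complex II overlapped, and the assembly factors took a smaller share. Complex IV subunits took 0.301% to 0.312% of UMIs in Ctrl and 0.414% to 0.436% at D0, and complex V subunits 0.298% to 0.315% and 0.388% to 0.433%. Complex III subunits took 0.109% to 0.116% in Ctrl and 0.139% to 0.153% at D0, and complex I subunits 0.373% to 0.385% and 0.423% to 0.451%. These 4 sets had no overlap between Ctrl and D0. Complex II, which also works in the tricarboxylic acid cycle, took 0.0316% to 0.0348% in Ctrl and 0.0331% to 0.0343% at D0. Assembly factors, which help build the complexes without staying in them, took 0.0301% to 0.0308% in Ctrl and less, 0.0247% to 0.0273%, at D0.

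Gene by gene, sums of UMIs per library were fitted with edgeR, which scales libraries by TMM (a factor computed from the bulk of genes), so that log2 fold changes are relative to the typical gene and can exceed the ratio of the levels given beside them. Levels are in CPM, the UMIs of a gene per 1000000 UMIs of its class in a library. Of 12250 genes tested, 91 were nuclear members and 13 were mt- genes. At D0, 40 of the 91 nuclear members were higher than in Ctrl at an adjusted p under 0.05 and 0 were lower, against 7.59% of all genes tested that were higher. At an unadjusted p under 0.05, 65 nuclear members passed, and DESeq2 called 59 higher and 0 lower. The median log2 fold change was 0.47 over the nuclear members and −0.04 over all genes tested. Without TMM the median over all genes was −0.29, the nuclear median was 0.23, and 26 members were higher and 1 lower. In CPM, every D0 library lay above every Ctrl library for 48 nuclear members and below for 9, where 9.13% of all genes lay above and 36.5% below.

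The call count leaned on single libraries. It was 26 without Ctrl-2, 16 without Ctrl-3, 15 without D0-2 and 26 without D0-3, and 8 with D2-3 included. In the fits with a library left out the direction did not change, since 0 nuclear members were lower in any of them. With Cell Ranger version as a term the count also fell, and the nuclear median was 0.58. That fit sets D0 against Ctrl-1 alone, since the other Ctrl libraries are the only ones compared with the other version.

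Complexes IV and V had the largest shares of members called. Complex V had 10 of 15 tested members higher (median log2 fold change 0.63), complex IV 10 of 15 (0.75), complex III 4 of 8 (0.62), complex I 15 of 36 (0.41), complex II 1 of 4, and the assembly factors 0 of 13 (0.0046). Atp5g2 encodes subunit c, which forms the rotor ring of the ATP synthase (chr15:102662864-102672352). It had 357, 351 and 373 CPM in Ctrl and 592, 672 and 605 at D0, a log2 fold change of 1.03 (SE 0.13, adjusted p = 0.00158). The D0 and Ctrl libraries did not overlap. Atp5d, the delta subunit of the central stalk, had 183, 179.6 and 188 in Ctrl and 269.6, 298 and 280.1 at D0 (0.87, SE 0.12, adjusted p = 0.00219). The catalytic core moved less: Atp5b (beta) had a log2 fold change of 0.47 (SE 0.14, adjusted p = 0.059) and Atp5a1 (alpha) of 0.36 (SE 0.13, adjusted p = 0.101), neither past the threshold. Atp5c1, the gamma subunit of the stalk, rose by 0.72 (SE 0.13, adjusted p = 0.00896).

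In complex IV, Cox4i1, the widely expressed form of subunit 4 (chr8:120668222-120674207), had 623, 562 and 574 CPM in Ctrl and 963, 917 and 813 at D0 (0.86, SE 0.11, adjusted p = 0.00159). Cox8a had 407, 442 and 416 in Ctrl and 609, 657 and 647 at D0 (0.84, SE 0.13, adjusted p = 0.0043). Both genes separated the groups by a gap larger than the spread within either. Cox5a had 145, 135 and 138 in Ctrl and 162, 198 and 225 at D0 (0.73, SE 0.14, adjusted p = 0.0129), with D0-1 nearest to Ctrl. Cox6a1 rose by 0.80 (SE 0.12, adjusted p = 0.00338).

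In complex III, Uqcrh, the hinge protein next to cytochrome c1 (chr4:116066965-116075071), had 343, 309 and 301 CPM in Ctrl and 544, 489.6 and 440.4 at D0 (0.87, SE 0.11, adjusted p = 0.00169). Uqcrfs1, the Rieske iron-sulfur protein, had 83.2, 76.6 and 81.6 in Ctrl and 113, 122 and 104 at D0 (0.74, SE 0.12, adjusted p = 0.00521). The 2 groups did not overlap for either gene. Uqcrc1, a core protein, did not pass (0.23, SE 0.20, adjusted p = 0.491).

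In complex I, all 15 members called were accessory subunits. Ndufa1 (chrX:37187588-37191163) showed the largest log2 fold change of the called nuclear members, with 64.7, 95.1 and 78.9 CPM in Ctrl and 114, 149.9 and 152 at D0 (1.05, SE 0.22, adjusted p = 0.0181). Ndufb5 and Ndufb11, accessory subunits of the membrane arm, both rose by 0.70 (adjusted p = 0.00278 and 0.0066). Among the core subunits, Ndufs1, which carries iron-sulfur clusters, had 37.4, 39.0 and 37.7 in Ctrl and 32.0, 29.2 and 30.7 at D0, lower in every D0 library in CPM, but with a log2 fold change of −0.07 that did not pass (adjusted p = 0.716). Ndufv1, which binds NADH, did not pass either (0.29, SE 0.16, adjusted p = 0.277). In complex II, the iron-sulfur subunit Sdhb rose by 0.48 (SE 0.13, adjusted p = 0.0439), from 99.6, 105 and 99.0 in Ctrl to 116, 127 and 115 at D0, while the flavoprotein Sdha had 0.03 (SE 0.11, adjusted p = 0.909).

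At D2 the same direction was seen with fewer calls. Of the 91 nuclear members 19 were higher and 0 lower than in Ctrl (median 0.29, all genes −0.02), against 6.99% of all genes higher. By complex these were 4 of complex I, 0 of complex II, 2 of complex III, 7 of complex IV, 6 of complex V and 0 assembly factors. The largest log2 fold change among called nuclear members was that of Uqcrh, at 502 and 547 CPM (0.86, SE 0.12, adjusted p = 0.00316). It was followed by Atp5g2 at 531 and 626 (0.81, SE 0.14, adjusted p = 0.00714), Cox4i1 at 862 and 934 (0.75, SE 0.12, adjusted p = 0.00482), Cox8a at 583 and 703 (0.74, SE 0.14, adjusted p = 0.0107) and Cox5a at 205 and 199 (0.67, SE 0.16, adjusted p = 0.0267). All of these exceeded each Ctrl library. Both D2 libraries lay above every Ctrl library in CPM for 45 nuclear members and below for 9, where 14.3% of all genes lay above and 34.6% below. The 19 members called at D2 were all called at D0 as well, but the 2 comparisons share the Ctrl libraries. The D2 count was 10 without Ctrl-2 and 9 without Ctrl-3, and it fell further without D2-2, which leaves a single D2 library. With Cell Ranger version as a term the count also fell, but D2 was then set against Ctrl-1 alone. Between D2 and D0 directly, edgeR called 0 of 12250 genes (737 at an unadjusted p under 0.05) and DESeq2 called 19 genes, 0 of them members. Library D2-3, with 145 non-dividing microglia, had a nuclear share of 2.19%, above all others. Of these cells 81.4% lay in cluster 6, described below, against 18.4% to 22.2% in D2-1 and D2-2.

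**Figure D2:**
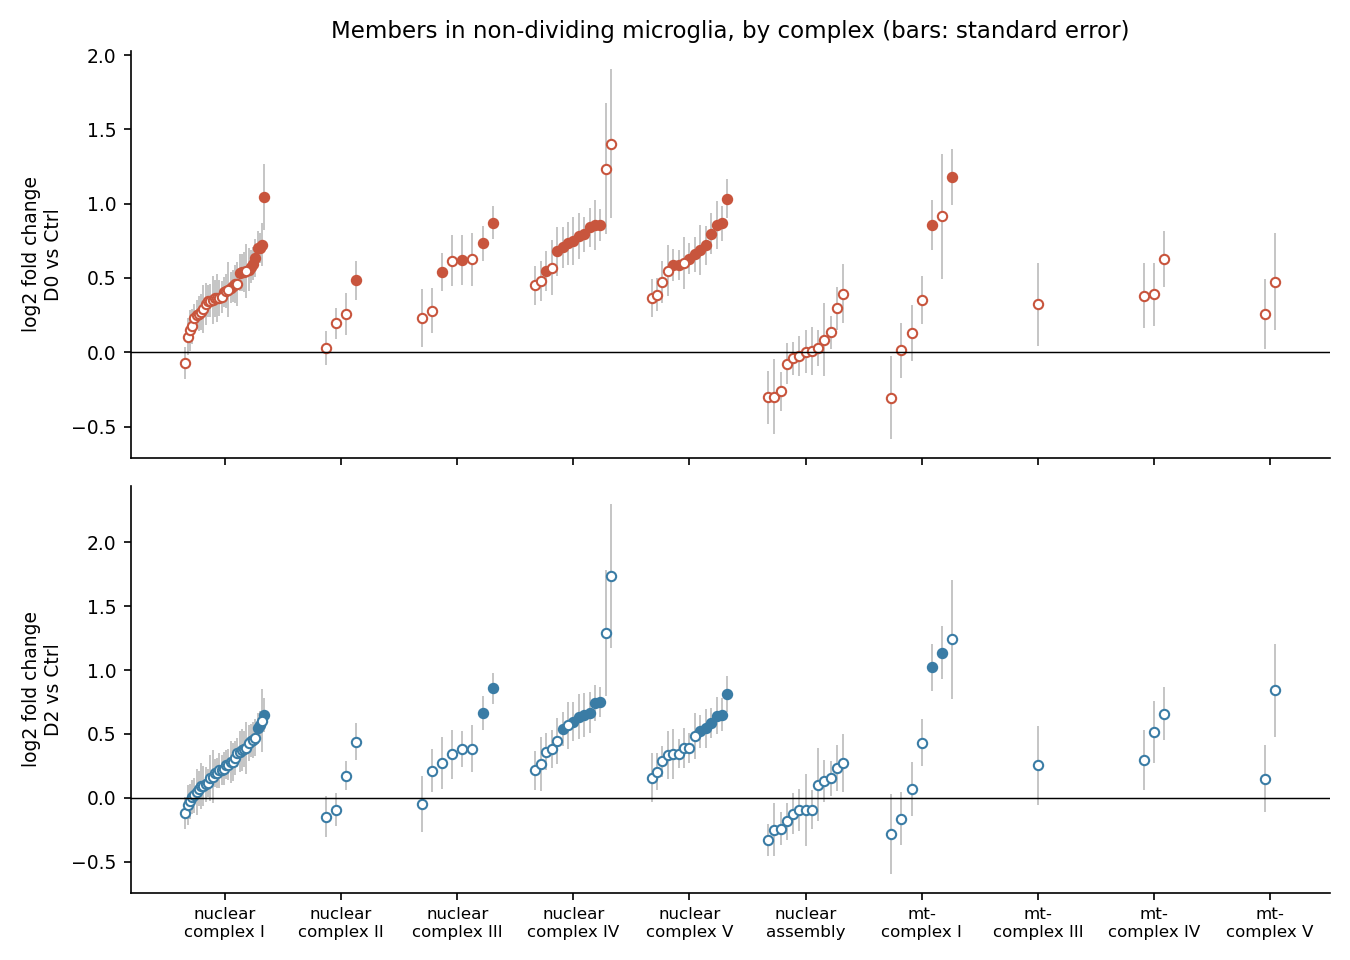
Log2 fold change against Ctrl (vertical axis) of each tested member, grouped by complex, at D0 (top) and D2 (bottom), with bars of 1 SE; filled points have an adjusted p under 0.05. Points of complexes III, IV and V sat mostly above 0 (median at D0 0.62, 0.75 and 0.63), and those of the assembly factors around 0 (0.0046).

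Of the 13 mt- genes 2 were higher and 0 lower at D0, and the same 2 were higher at D2. Among all genes tested 7.59% were higher at D0 and 6.99% at D2. The median log2 fold changes were 0.38 and 0.43 over the 13, where the medians over all genes were −0.04 and −0.02. The log2 fold change was above 0 for 12 of the 13 at D0 and 11 at D2. Both genes that passed encode subunits of complex I. mt-Nd4l had 237, 147 and 136 CPM in Ctrl, 352, 334 and 301 at D0, and 317 and 373 at D2 (log2 fold change 1.18, SE 0.19, adjusted p = 0.00504 at D0, and 1.14, SE 0.20, adjusted p = 0.0082 at D2). mt-Nd5 had 373, 256 and 244 in Ctrl, 490.2, 434 and 403 at D0, and 467 and 603 at D2 (0.85, SE 0.17, adjusted p = 0.0129, and 1.02, SE 0.18, adjusted p = 0.00829). In both genes Ctrl-1 was the highest Ctrl library and stood between the other Ctrl libraries and the treated ones. With Cell Ranger version as a term, which sets D0 against Ctrl-1 alone, the log2 fold changes at D0 were 0.79 for mt-Nd4l and 0.55 for mt-Nd5. They were 1.09 for mt-Co1, 1.02 for mt-Co2, 1.01 for mt-Co3 and 1.00 for mt-Atp6. Replicate numbers were taken as pairing the Ctrl and D0 libraries, which is uncertain (the correlations are given with the processing). With the number as a block 4 mt- genes were higher at D0, mt-Co1 (0.66) and mt-Nd6 (0.93) in addition.

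Ctrl-1 was the lowest Ctrl library in 9 mt- genes and the highest in the other 4, mt-Nd4l, mt-Nd5, mt-Nd6 and mt-Atp8. mt-Co1, a core subunit of complex IV, had 2878, 4393 and 4009 CPM in Ctrl, 5002, 5055 and 4747 at D0, and 4749 and 6144 at D2 (0.63, SE 0.19, adjusted p = 0.0612 at D0). mt-Cytb, the mitochondrial subunit of complex III, had 2035, 4225 and 3875 in Ctrl and 3322, 3861 and 3603 at D0 (0.32, adjusted p = 0.497). In these genes Ctrl-1 was the lowest library. mt-Nd6, the only mt- gene on the minus strand, had 39.7, 13.9 and 15.0 in Ctrl, 60.8, 25.9 and 23.0 at D0, and 51.5 and 46.0 at D2 (0.91, SE 0.42, adjusted p = 0.196 at D0). mt-Atp8 had 74.9, 38.1 and 31.3 in Ctrl and 86.5, 41.0 and 42.5 at D0 (0.48, adjusted p = 0.389). For these Ctrl-1 was the highest Ctrl library, and D0-1 the highest D0 library.

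The other mt- genes did not pass at D0. Their log2 fold changes were 0.39 for mt-Co2, 0.38 for mt-Co3, 0.35 for mt-Nd4, 0.26 for mt-Atp6, 0.13 for mt-Nd1, 0.01 for mt-Nd2 and −0.31 for mt-Nd3. mt-Nd4l overlaps mt-Nd4 on the genome, as mt-Atp8 overlaps mt-Atp6, and mt- genes have nuclear copies of parts of their sequence, so how reads were divided among them is uncertain. The same holds for nuclear members with processed pseudogenes.

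Other values moved with the conditions within non-dividing microglia. The summed level of the 8 M-phase markers was 4.70 to 6.39 CPM in Ctrl, 25.7 to 101 at D0 and 70.2 to 112 at D2. Whether dividing cells remained among those called non-dividing was not tested. Without the 2921 microglia that held any M-phase UMI, 30 nuclear members were higher at D0 and 9 at D2. The summed level of the 10 microglia markers was 35699 to 41708 in Ctrl, 28171 to 30607 at D0 and 24086 to 24563 at D2. That of the 8 S-phase markers was 94.7 to 107 in Ctrl, 84.9 to 341 at D0 and 70.4 to 116 at D2, overlapping between conditions. The 9 markers of border-associated macrophages summed to 235 to 298 in Ctrl, 125 to 164 at D0 and 135 to 136 at D2, and the 10 of neutrophils to 212 to 266, 185 to 402 and 281 to 458. Astroglial markers summed to 171 to 190, 89.7 to 116 and 91.6 to 111, and oligodendrocyte markers to 89.8 to 111, 79.9 to 87.5 and 70.9 to 77.1. Endothelial markers were lower at D0 alone (38.8 to 50.6 in Ctrl, 25.1 to 31.7 at D0). Monocyte and mural markers were higher at D2 (11.3 to 22.0 and 4.08 to 4.88) than in Ctrl (7.40 to 8.22 and 0.891 to 3.08). Malat1, a nuclear RNA used as a sign of RNA quality, averaged 25113 in Ctrl, 14550 at D0 and 18903 at D2 (D0 log2 fold change −0.55, adjusted p = 0.0314). Of the 10 tested genes listed as signs of RNA quality or dissociation, 1 was lower and 1 higher at D0 (median 0.14). At D2 0 were lower and 1 higher (median −0.31). The part of the microglia and Malat1 levels in the result was not tested.

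The share of the nuclear group was higher at D0 within each of the 6 clusters of non-dividing microglia. In cluster 1 it was 1.17% to 1.25% in Ctrl, 1.29% to 1.33% at D0 and 1.16% to 1.20% at D2. In cluster 4, led by the immediate-early genes Egr1 and Atf3, it was 1.05% to 1.12%, 1.25% to 1.34% and 1.20% to 1.23%. D0 lay above Ctrl without overlap in all 6 clusters, and D2 did in clusters 2, 4, 5 and 6. In cluster 5, led by the cytokine genes Tnf and Il1a, the share was 1.09% to 1.16% in Ctrl, 1.53% to 1.58% at D0 and 1.42% to 1.57% at D2. In cluster 6, led by interferon-stimulated genes such as Ifit3 together with Cxcl13 and Igf1, it was 1.29% to 1.36%, 1.74% to 2.04% and 1.62% to 2.01%, the highest of the 6 in each condition. These clusters also differed in size: cluster 6 made up 1.37% to 1.71% of non-dividing microglia in Ctrl, 12.9% to 16.7% at D0 and 18.4% to 22.2% at D2, and cluster 5 0.674% to 4.199%, 5.04% to 27.4% and 9.97% to 12.1%. Tested within clusters 1 to 6, 7, 24, 11, 17, 22 and 29 nuclear members (of 88 to 91 tested) were higher at D0, against 2.52%, 3.35%, 2.63%, 3.14%, 1.66% and 2.70% of all genes tested there. The mt- share overlapped between Ctrl and treated libraries in each of the 6 clusters.

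**Figure D3:**
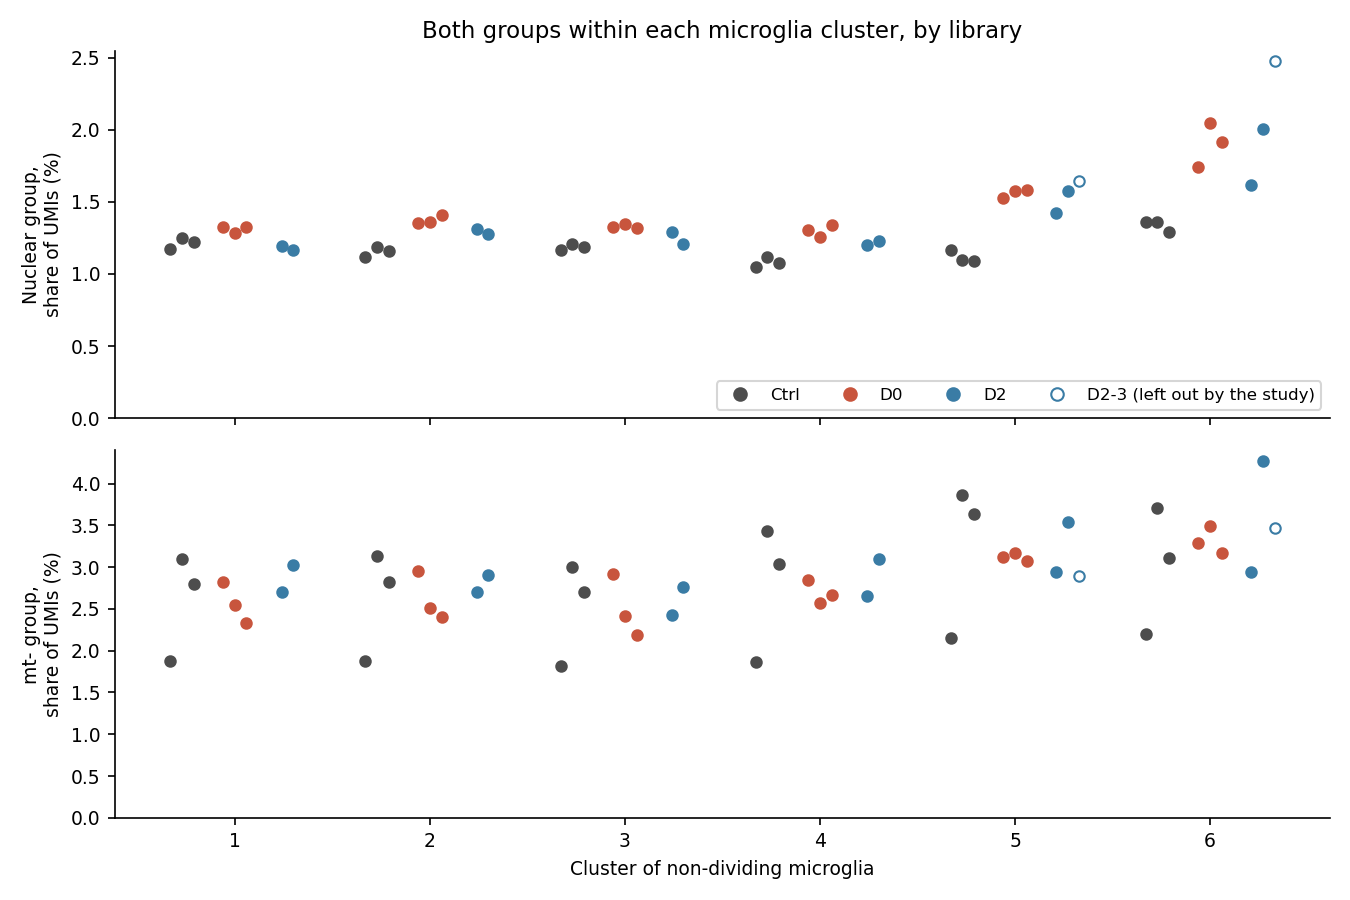
Nuclear and mt- share of UMIs (%) per library within each of clusters 1 to 6 of non-dividing microglia, by condition. The nuclear share of D0 libraries lay above Ctrl in every cluster, most clearly in clusters 5 (1.53% to 1.58% against 1.09% to 1.16%) and 6 (1.74% to 2.04% against 1.29% to 1.36%).

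Dividing microglia carried more of the nuclear group than other microglia of the same library. Their nuclear share was 1.98%, 1.88% and 1.91% in the D0 libraries and 1.62% and 1.93% in D2-1 and D2-2, above the non-dividing cells in all 5. The mt- share was 3.21%, 3.104% and 3.13% at D0 and 3.37% and 3.49% at D2. Ctrl libraries held too few dividing cells to enter. Signs of RNA quality and dissociation moved with this comparison: of 10 such genes 0 were higher and 9 lower in dividing cells (median −0.58), among them Hspa1a (−1.80) and Malat1 (−0.83), and their part in the result was not tested. With library as a term, 57 of 92 nuclear members were higher in dividing cells, against 23.4% of 11594 genes, and 3 were lower, against 22.5%. The nuclear median was 0.35 and that of all genes −0.04. When cluster 11, led by Top2a and Hist1h1b, stood for the dividing cells alone, 34 were higher. Levels are relative to all UMIs of the cells, and the median UMI count per cell was 6862 to 12944 in dividing and 5215 to 10133 in other microglia.

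Complex V was called most fully, with 14 of 15 members higher, against 23 of 36 in complex I, 2 of 4 in complex II, 5 of 8 in complex III and 11 of 16 in complex IV. Atp5o, the subunit that links the catalytic head to the peripheral stalk, had 327, 257, 269, 208 and 279 CPM in dividing cells of D0-1, D0-2, D0-3, D2-1 and D2-2 and 136, 137, 140.0, 138 and 149 in other microglia (log2 fold change 0.93, SE 0.09, adjusted p = 9.12e-06). Uqcr10, a small subunit of complex III, had 253, 224, 241, 175 and 224 against 106, 131, 152, 108 and 125 (0.85, SE 0.10, adjusted p = 3.1e-05). Ndufa5, an accessory subunit of complex I, had 109, 89.8, 114, 82.3 and 108 against 57.6, 54.7, 67.7, 51.9 and 60.8 (0.78, SE 0.08, adjusted p = 1.22e-05). All 3 were higher in dividing cells in 5 of 5 libraries. Next came the assembly factor Ndufaf2 (0.72, SE 0.15, adjusted p = 0.00291) and Atp5k (0.69, SE 0.08, adjusted p = 4.97e-05).

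Of the members named for D0, Uqcrh had a log2 fold change of −0.11 (adjusted p = 0.27) and Cox4i1 of 0.15 (adjusted p = 0.09) between dividing and other microglia, neither past the threshold. Among core subunits, Atp5b (0.45), Atp5a1 (0.32), Cox5a (0.50), Sdhb (0.39), Uqcrc1 (0.41) and Ndufv1 (0.40) rose in dividing cells, and Ndufs1 (0.14), Sdha (0.16) and Atp5c1 (0.12) did not pass. The 3 members that fell were Ndufaf4 (−0.51, adjusted p = 0.024) and Sdhaf1 (−0.36, adjusted p = 0.0396), both assembly factors, and Cox6a2 (−0.60, adjusted p = 0.035). Ndufaf4 was 0.11 when cluster 9, led by Pclaf and Birc5, stood for the dividing cells alone. Of the mt- genes, mt-Nd1 (0.28, SE 0.06, adjusted p = 0.0033) and mt-Co3 (0.20, SE 0.07, adjusted p = 0.032) rose, a count that was 1 with any of the 5 libraries left out. The difference between dividing and other microglia was not found to differ between D2 and D0 (0 of 11594 genes by edgeR, with 726 at an unadjusted p under 0.05). In D2-3 the nuclear share of its 647 dividing cells was 2.75%.

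Across cell types the nuclear and mt- shares ranged widely. Mural-like cells, the contractile cells and pericytes of vessels, had the highest of both among classes present in at least 3 libraries: 2.63 ± 0.212% nuclear and 5.73 ± 0.722% mt- (SD, n = 6). Endothelial-like cells had 1.78 ± 0.147% and 4.08 ± 0.610% (n = 8). Neutrophil-like cells had the lowest of both, 0.947 ± 0.0554% and 0.870 ± 0.357% (n = 7). Their nuclear share was above the mt- share on average, but below it in Ctrl (ratio 0.654 to 0.917). A mixed myeloid cluster led by the antigen-presentation genes H2-Eb1, H2-Aa and Cd74 (cluster 8, left unnamed, which carried markers of border-associated macrophages, dendritic cells and monocytes) had 1.60 ± 0.175% and 2.25 ± 0.745% (n = 8), against 1.36 ± 0.165% and 2.85 ± 0.454% in non-dividing microglia (n = 8). Among classes in 1 or 2 libraries, 123 ependymal-like cells of few UMIs in D0-3 had 3.69% and 5.11%, and 49 lymphoid-like cells at D0 2.21% and 1.81%.

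**Figure D4:**
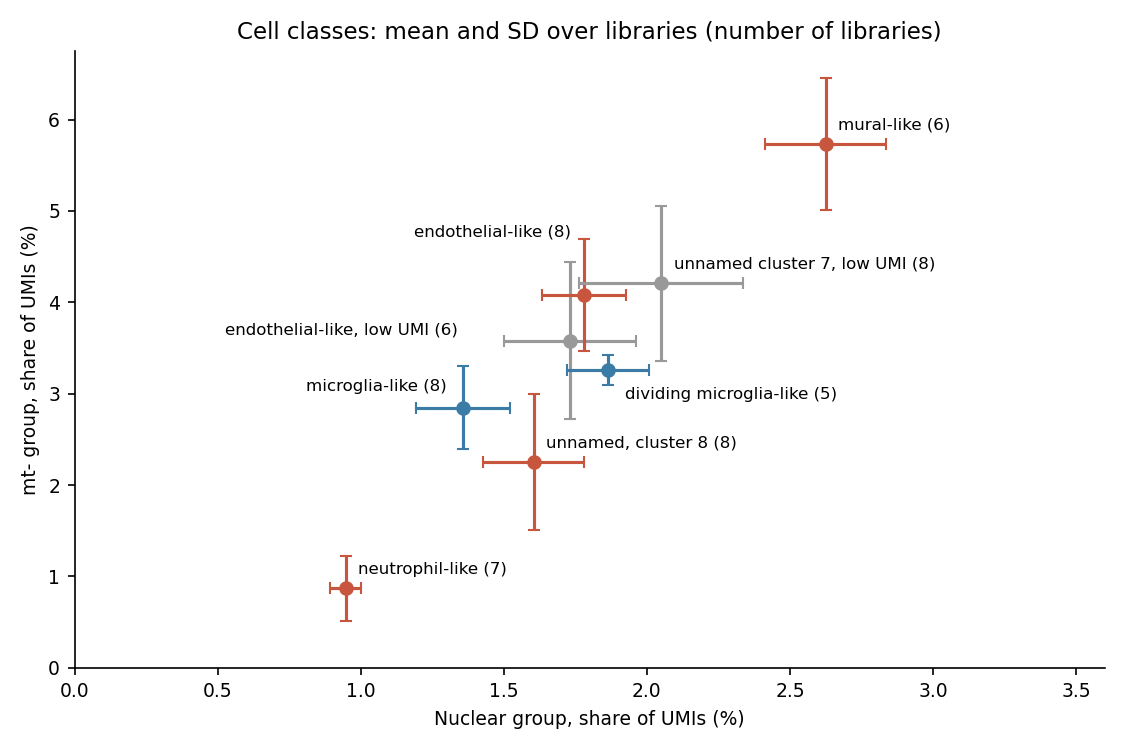
Mean share of UMIs in the nuclear group (horizontal axis, %) against that in the mt- group (vertical axis, %), with bars of 1 SD over libraries. Only cell classes present in at least 3 libraries are shown. Mural-like cells sat highest on both axes (2.63% and 5.73%) and neutrophil-like cells lowest (0.947% and 0.870%).

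Relative to non-dividing microglia of the same library, mural-like cells had more of nearly every complex. Of 93 nuclear members 60 were higher, against 24.3% of 12470 genes, and 4 were lower, against 28.2% (nuclear median 0.57, all genes −0.11). These included 25 of 36 members of complex I, 7 of 8 of complex III, 12 of 17 of complex IV and 11 of 15 of complex V. Ndufa5 averaged 289.7 ± 36.0 CPM in mural-like cells and 60.0 ± 5.22 in microglia (log2 fold change 1.95, SE 0.15, n = 6 libraries). Sdhc, a membrane anchor of complex II, averaged 208 ± 31.1 and 55.4 ± 2.51 (1.59, SE 0.16), and Atp5b 858 ± 144 and 266 ± 34.2 (1.37, SE 0.18). Each of these was higher in 6 of 6 libraries. Those that fell were Cox6a2, Sdhaf4 (−0.92), Cox7a2l (−0.84), a factor of supercomplex assembly, and Ndufc2 (−0.48). Of the mt- genes 9 of 13 were higher and 0 lower, led by mt-Atp6 (1.09, SE 0.25) and mt-Cytb (0.95, SE 0.24), a count that was 3 without Ctrl-1, 4 without D0-1 and 3 without D2-1. The median UMI count of mural-like cells was 932 in Ctrl-3 and 3811 to 7533 elsewhere. With cells thinned to 2000 UMIs and shallower cells left out, which also removed Ctrl-3 from the fit, 34 nuclear members and 2 mt- genes were higher, where 45 and 6 were without Ctrl-3 and with no thinning.

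In endothelial-like cells nuclear members were called with TMM no more often than all genes tested, and the direction of the group depended on scaling. With TMM 24 of 93 nuclear members were higher, against 30.1% of 12530 genes, and 28 were lower, against 36.9%. Without TMM 60 were higher and 6 lower, and the median over all genes moved from −0.11 to 0.37. Atp5j, coupling factor 6 of the ATP synthase, averaged 674 ± 56.7 CPM in endothelial-like cells and 247 ± 29.0 in microglia (0.99, SE 0.11), and Ndufa7 486 ± 67.1 and 179 ± 18.5 (0.97, SE 0.10). Both were higher in 8 of 8 libraries. Ndufa11 (0.69), Ndufs5 (0.68) and Ndufa5 (0.66) followed. Atp5g2 averaged 350.0 ± 70.5 and 513 ± 132 (−1.005, SE 0.15, lower in 6 of 8 libraries) and Ndufa9 64.1 ± 8.95 and 82.3 ± 6.67 (−0.84, SE 0.11), the latter lower in every library. Ndufs8 (−0.78), Cox7a2l (−0.78) and Cox8a (−0.76) were next. Of the mt- genes only mt-Nd6 passed with TMM (0.30), and not when Ctrl-3, D0-2, D0-3 or D2-1 was left out, while 10 were higher without TMM.

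Neutrophil-like cells were low in all mt- genes. All 13 were lower than in microglia, in 7 of 7 libraries each, with log2 fold changes from −0.67 for mt-Co1 (1918 ± 389.5 against 4871 ± 668 CPM) to −1.87 for mt-Nd2 (372 ± 274 against 1783 ± 289), and they stayed lower without TMM. Nuclear members went both ways with TMM: 24 of 91 were higher, against 26.0% of 11864 genes, and 25 lower, against 38.1%. Without TMM 2 were higher and 60 lower, the median over all genes moving from −0.42 to −1.16. Ndufb7 (1.40, SE 0.18) and Atp5l (1.24, SE 0.17) were higher in 7 of 7 libraries also in CPM, at 209 ± 34.4 against 127 ± 6.63 and 399 ± 55.5 against 272 ± 37.2. The assembly factors fell furthest, with 7 of 13 lower, among them Ndufaf4 (−2.84), Sdhaf4 (−1.95) and Sdhaf1 (−1.70). Atp5g2 had 129 ± 45.7 against 536 ± 126 (−1.41, SE 0.22) and Ndufs3 24.3 ± 12.2 against 94.0 ± 1.24 (−1.40, SE 0.22).

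In cluster 8 nuclear members were mostly higher than in microglia, and the mt- group depended on the condition. Its mt- share was 2.08%, 3.38% and 3.42% in Ctrl, above the microglia of each library, and 2.26%, 1.70% and 1.64% at D0 and 1.86% and 1.65% at D2, below them. Over the 8 libraries, of 91 nuclear members 62 were higher than in microglia, against 27.3% of 11999 genes, and 4 lower, against 29.3%, while 7 mt- genes were lower and 0 higher (medians 0.35 and −0.44). Without TMM 44 nuclear members were higher and 10 lower, and 9 mt- genes lower. Atp5l had 448 ± 92.6 against 266 ± 38.7 CPM (0.92, SE 0.08) and Cox5a 286 ± 74.0 against 176 ± 35.0 (0.87, SE 0.09), each higher in 8 of 8 libraries. Ndufa9 (−0.46) and Ndufs1 (−0.36) fell. The mt- genes that fell were mt-Nd3 (−0.73), mt-Cytb (−0.73), mt-Nd2 (−0.70), mt-Nd4l (−0.66), mt-Nd1 (−0.59), mt-Nd4 (−0.55) and mt-Nd5 (−0.44), whereas mt-Co1 (0.09), mt-Co2 (0.06) and mt-Co3 (−0.07) did not pass.

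A finer clustering of all kept cells, at a resolution of 1.0 and chosen after seeing the data, named myeloid classes by type. The types differed in their counts. They do not divide cluster 8 alone. In Ctrl-1 the border-associated macrophage-like class held 150 cells and cluster 8 held 142. The monocyte-like class shared top genes such as Ace and Ear2 with cluster 14, a monocyte-like cluster apart from cluster 8. In border-associated macrophage-like cells (8 libraries) 20 of 91 nuclear members were higher than in microglia, against 11.4% of 11881 genes, and 1 was lower, against 12.1%, with 0 mt- genes called by edgeR (2 at an unadjusted p under 0.05), or 1 lower without TMM. In dendritic cell-like cells (6 libraries) 55 were higher, against 24.5% of 11585 genes, and 6 lower, against 30.9%, with 11 mt- genes lower (median −0.82). In monocyte-like cells (7 libraries) 48 were higher, against 20.4% of 11521 genes, and 11 lower, against 37.5%, with 11 mt- genes lower (median −0.997). Lower mt- levels were called in the dendritic cell-like and monocyte-like cells of this finer clustering. The difference between these types and the macrophages was not tested. Without TMM the nuclear counts were 18 higher and 2 lower, 29 and 11, and 51 and 9.

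Whether the D0 difference was shared by other cells was tested as an interaction with library as a term. In endothelial-like cells the D0 minus Ctrl difference was lower than in microglia for 25 nuclear members, against 3.18% of 12766 genes, and for 7 mt- genes. Examples were Uqcrfs1 (−1.01, SE 0.24, adjusted p = 0.002), Cox6c (−0.93), Atp5g2 (−0.89), Ndufa2 (−0.88) and Cox4i1 (−0.76, adjusted p = 0.0062). The calls rested on the scaling, since without TMM there were 1 and 0. The nuclear share of endothelial-like cells averaged 1.78% in Ctrl, 1.84% at D0 and 1.68% at D2. In neutrophil-like cells 0 members passed (12017 genes tested, edgeR; 1 nuclear member and 5 mt- genes at an unadjusted p under 0.05). In cluster 8, 0 nuclear members differed from microglia in their D0 difference, and 11 mt- genes did, all lower, against 4.28% of 12280 genes (9 without TMM). mt-Cytb had −1.03 (SE 0.17, adjusted p = 0.0051). The numbers of myeloid cells differed between conditions as well. In the finer clustering, border-associated macrophage-like cells numbered 150, 66 and 112 in Ctrl and 84, 49 and 20 at D0. Dendritic cell-like cells numbered 21, 11 and 18 in Ctrl and 78, 143 and 91 at D0. How many of them lay in cluster 8 was not counted. A change within the cells cannot be told apart here from a change in which cells cluster 8 held.

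Some subunits have isoforms known from other tissues to replace the common form, and some of these were found here mainly in single cell classes. Ndufa4l2, a paralog of the complex IV subunit Ndufa4 (chr10:127514967-127517154), had 485, 518, 531, 1287, 385 and 579.5 CPM in mural-like cells of Ctrl-1, Ctrl-3, D0-1, D0-3, D2-1 and D2-2, from 81 to 282 UMIs per library. Microglia held 0 to 4 UMIs of it per library, or at most 0.390 CPM, and neutrophil-like cells 0, with 15 UMIs in all endothelial-like cells. In mural-like cells its mean of 631 lay above that of Ndufa4, at 424 ± 73.0. Cox4i2, the form of subunit 4 described in lung and other oxygen-responsive tissue (chr2:152754173-152765037), had 362, 319, 291, 694, 212 and 389.6 in the same libraries and at most 0.585 in microglia. The common Cox4i1 was at 852 to 1092 in these cells, so that Cox4i2 stayed below it in each library. A fitted fold change for these 2 isoforms depends on the prior count and is not given.

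The remaining isoforms were scarcer. Cox6a2, the heart and skeletal muscle form of subunit 6a (chr7:128205435-128206387), was found in microglia of every library, at 7.81 to 12.95 CPM, next to 131 to 214 of Cox6a1. It had 0 UMIs among 1321478 of mural-like cells, which allows up to 2.27 CPM, and 1 UMI in all endothelial-like cells. Cox6b2, a testis form, had 22.2 ± 4.58 in mural-like cells from 4 to 7 UMIs per library (log2 fold change 2.44, SE 0.43), 15.5 ± 5.37 in cluster 8 (2.26, SE 0.20) and 3.86 ± 1.97 in microglia. It was also higher in dividing than in other microglia, at 5.91 to 13.7 against 2.38 to 7.005 (1.18, adjusted p = 0.000115, higher in 5 of 5 libraries). Cox7a1, a muscle form, averaged 8.30 ± 8.45 in mural-like cells from 0 to 5 UMIs per library. Cox8b, the muscle form of subunit 8, had 316 CPM in the ependymal-like cells of D0-3 and 3 UMIs in all microglia. Of the 3 genes for subunit c of the ATP synthase, Atp5g2 led in microglia (513 ± 132) and endothelial-like cells (350.0 ± 70.5) over Atp5g1 (175 ± 33.1 and 165 ± 29.2) and Atp5g3 (88.8 ± 17.3 and 133 ± 15.7). These levels come from 3′ tags, of which a transcript gives 1 whatever its length, and are in CPM.

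**Figure D5:**
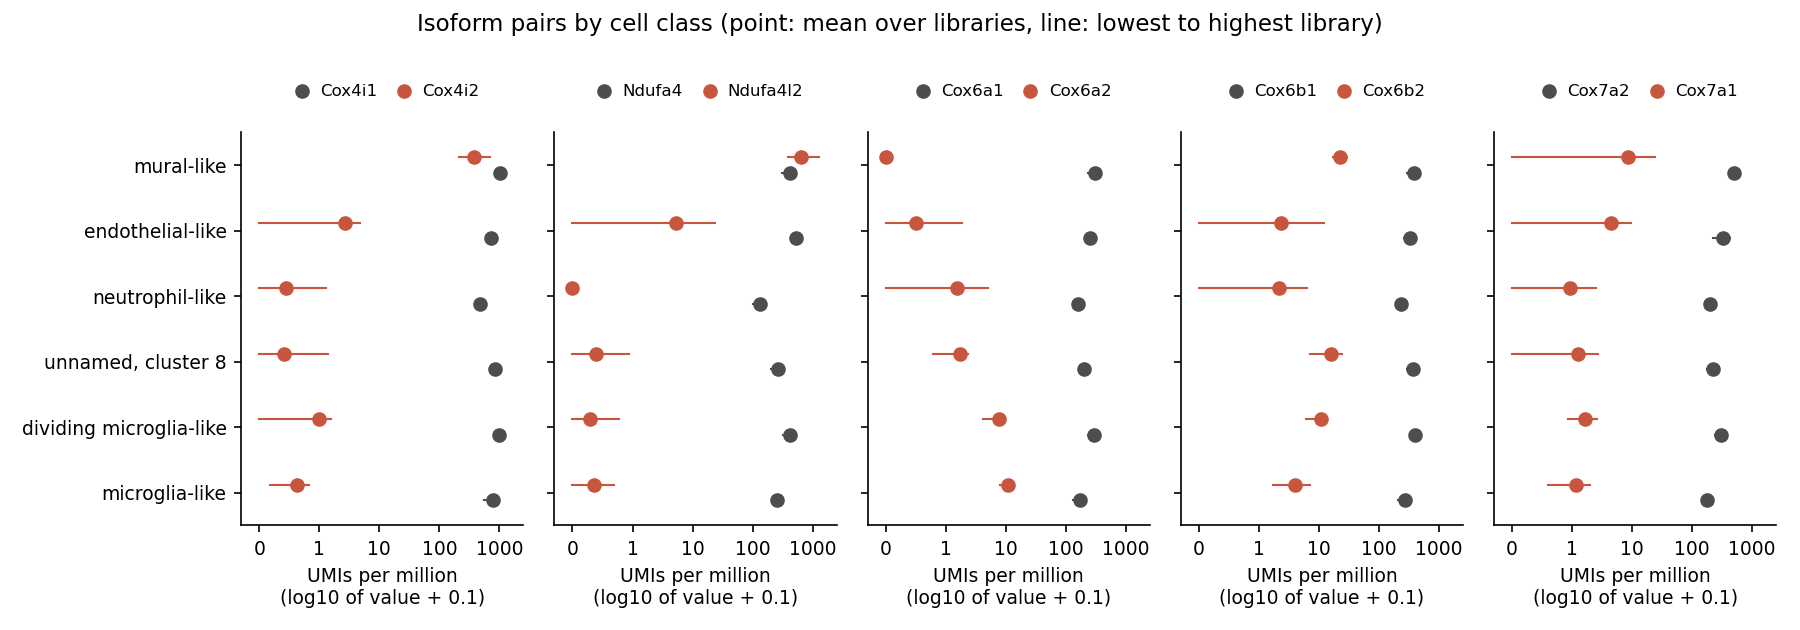
Level (log10 of CPM + 0.1) of 5 pairs of isoforms by cell class, with points at the mean and lines from the lowest to the highest library. Ndufa4l2 and Cox4i2 reached 631 and 378 CPM in mural-like cells and stayed under 1 in microglia, whereas Cox6a2 was seen in microglia at 10.7 and not in mural-like cells.

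Genes that serve the chain without being members had few calls at D0, where 7.59% of all genes were higher, and their difference from the members was not tested. Of 44 other respiratory chain genes (cytochrome c, further assembly factors and electron carriers) 3 were higher and 0 lower, namely the assembly factors Dmac1 (0.74), Higd2a (0.59) and Cox14 (0.56), with a median of 0.11. Of 34 genes that express the mitochondrial genome 2 were higher, Slirp (0.61) and Hsd17b10 (0.51), and Gfm2, a factor of mitochondrial translation, was lower (−0.59), with a median of −0.03. Of 15 tricarboxylic acid cycle genes Fh1 and Idh3b were higher (both 0.49), with a median of 0.16. Of 12 tested regulators of mitochondrial biogenesis 0 passed at D0 (edgeR; Nrf1 −0.35, adjusted p = 0.086), with a median of −0.10. At D2 the counts were 2 higher (Dmac1, Cox14), 1 lower (Gfm2), 0, and 1 higher (Ppargc1b, a coactivator of mitochondrial genes, 2.16 CPM in Ctrl and 5.99 at D2).

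In dividing microglia, where 23.4% of all genes were higher and 22.5% lower, these lists had more calls as well. Of 43 other respiratory chain genes 13 were higher, among them Cox20 (1.07), cytochrome c, Cycs (0.74), and Etfa (0.72), and 5 lower, among them Sco2 (−0.97) and Dmac2 (−0.92). Of the 15 tricarboxylic acid cycle genes 7 were higher, led by Fh1 (0.79), and 1 lower, and of the genes that express the mitochondrial genome 3 were higher and 5 lower. Of the 12 tested regulators 2 were higher and 3 lower (median −0.21). Nrf1 (0.81) and Gabpb1 (0.72), which encode a factor and a factor subunit for the motifs above, were higher, and Ppard (−0.56), Esrra (−0.49) and Tfeb (−0.45) were lower. In mural-like cells 10 of the 15 tricarboxylic acid cycle genes were higher and 1 lower (median 0.90).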

How the data were processed

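Live CD11b+ brain cells were captured on the 10x Genomics platform. The authors deposited raw UMI counts per gene and barcode for each library, aligned to mm10 with Cell Ranger (3.1.0 per the labels, 3.0.2 or 3.1.0 per the file headers), without normalization. Members and gene lists were chosen with earlier results of these data known.

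Kept cells were clustered without member genes (scanpy 1.11.5, leidenalg 0.10.2, 3000 variable genes, 10 components, 20 neighbours, resolution 0.6, 21 clusters) and named from markers by rules set after seeing the clusters. A cluster took the name of a type with at least 3 raised markers, if markers of that type led its top genes. Clusters with such raised markers but no single leading type stayed unnamed. Of the rest, those with at least 3 microglia markers at 100 CPM or more were called microglia-like. They were called dividing if at least 3 markers of a division phase were raised as well. Names can therefore differ from those of the study. Doublets were kept: Scrublet marked 58 cells (0.190%), too few to have worked. Kept cells of D2-3 took part in the clustering. Barcodes outside the limits on UMIs or mt- share were placed by their 30 nearest kept cells.

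UMIs were summed per library and class, where a library had at least 20 cells, and tested with edgeR 4.0.16 in R 4.3.3 (quasi-likelihood, TMM, filterByExpr, Benjamini-Hochberg adjustment over all genes tested, adjusted p under 0.05). Ctrl, D0 and D2 were 1 fit; class comparisons had library as a term. Each Ctrl library was a separate brain and each other a separate pool. A fit of the Ctrl and D0 libraries without D2 (12017 genes), which is not the fit reported, was tested on simulated data. It recovered 61.6% of 2-fold and 91.9% of 4-fold changes, with 7 false calls. The fit of dividing cells (11594 genes) recovered 80.0% and 97.0%, with 17 false calls. Deviations of same-numbered Ctrl and D0 libraries correlated at 0.402, 0.235 and 0.165, which was taken as pairing. Ctrl-3 and D0-2, which differ in number, correlated at 0.246, so the pairing is uncertain. No pair of libraries was a duplicate. Named were all mt- genes, 10 core subunits, tissue isoforms, and in each comparison the 5 largest rises and falls among called nuclear members of at least 20 CPM, and other members were picked after their values were seen.

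The closing section gives the effect of alternatives: scaling by the upper quartile, DESeq2 1.42.0, all genes kept whatever their counts, the replicate block, Cell Ranger version as a term, other limits on cells, thinning to 2000 UMIs, removal of the top 4% of Scrublet scores, each library left out, D2-3 included, mt- genes out of the library size, and a finer clustering. Chosen after seeing the data were total UMIs without TMM, single clusters, removal of cells with M-phase UMIs, dividing clusters apart, and the interaction tests. The limit given by a count of 0 is 3 counts and, like all spread here, does not cover capture.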

Additional observations from a re-analysis of the deposited data

Results flagged for a closer look

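The D0 minus Ctrl difference was lower in endothelial-like cells than in non-dividing microglia for 25 nuclear members and for 7 mt- genes (mt-Co1, mt-Co2, mt-Co3, mt-Atp6, mt-Atp8, mt-Nd4l and mt-Nd5), by a test of the difference itself. Without TMM these counts were 1 and 0.

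The D0 minus Ctrl difference was also lower in cluster 8, the mixed myeloid cells led by H2-Eb1, than in microglia for 11 mt- genes, that is all except mt-Nd1 and mt-Nd2. In the finer clustering, border-associated macrophage-like cells numbered 150, 66 and 112 in Ctrl and 84, 49 and 20 at D0. Dendritic cell-like cells numbered 21, 11 and 18 and then 78, 143 and 91. How many of them lay in cluster 8 was not counted. A change within cluster 8 cannot be told apart from a change in the cells it held. In cluster 8 the nuclear members had a median difference of −0.06 and 0 passed.

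Within cluster 8, Ctrl-2 was far from the other libraries: the log2 ratio of its nuclear share to that of its microglia was 0.388, where the median over the 8 libraries was 0.220. Chance alone marks about 1 in 20 groups in this way, and 10 such groups were looked at.

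In D2-3, the library the study left out, non-dividing microglia had a nuclear share of 2.19%, above every Ctrl library. It rests on 145 cells, of which 81.4% lay in cluster 6, against 1.37% to 1.71% in the Ctrl libraries.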

How the results depend on the processing

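Of 5530 values of single genes under an alternative, 5165 kept their side of the threshold with no change of sign that involved a call (230 of them changed sign while called in neither fit), 226 lost the call, 126 gained it and 13 changed sign while called, and 301 of 379 counts of members stayed within 1.5 times the reported one. The cause of the changes was not tested.

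For D0 against Ctrl, nuclear members higher numbered 8 with D2-3 included, 26 without TMM, and 7, 24, 11, 17 and 22 within microglia clusters 1 to 5. The mt- genes higher numbered 1 within each of clusters 1, 3, 5 and 6. For D2 the nuclear count was 9 without cells holding M-phase UMIs, 12 without an upper UMI limit, 10 after thinning, and 2, 7, 2, 3, 2 and 10 within clusters 1 to 6. The D2 mt- count was 1 within cluster 6 and 5 without a filter on low counts. With Cell Ranger version as a term the nuclear counts fell and the mt- counts rose at D0 and D2. That fit sets D0 and D2 against Ctrl-1 alone, so its counts are not given. With the replicate block, nuclear members higher numbered 54 at D0 and 28 at D2, and mt- genes 4 and 5. Same-numbered libraries correlated at 0.0539 and 0.0976 for Ctrl and D2 and at −0.129 and 0.330 for D0 and D2, so these numbers were not taken as pairing.

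In dividing microglia the nuclear count was 34 with cluster 11 alone. The mt- count was 0 with D2-3 included, 1 with DESeq2, with cluster 11 alone, without a filter on low counts, without an upper UMI limit or by upper-quartile scaling, 5 after thinning or without TMM, 6 with cluster 9 alone and 9 by a per-cell rule. Ndufaf4 was 0.11 with cluster 9 alone.

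In endothelial-like cells the counts without TMM were 60 higher and 6 lower, with 10 mt- genes higher. The mt- count was 2 with DESeq2, thinning or upper-quartile scaling and 0 without a filter on low counts, without the mt- limit or without the top Scrublet scores. Without TMM the sign changed for Atp5a1 (0.19), Cox6b1 (0.28), Sdha (0.42), Sdhb (0.13), Uqcrc1 (0.37), mt-Co3 (0.40), mt-Cytb (0.42) and mt-Nd1 (0.36). In mural-like cells thinning, with cells under 2000 UMIs and Ctrl-3 left out, gave 34 nuclear members and 2 mt- genes higher, and Ndufa4 at −0.095. In neutrophil-like cells 11 were higher and 41 lower after thinning, and 2 and 60 without TMM, where Cox6a1 (−0.17), Cox6b1 (−0.25) and Cox8a (−0.11) changed sign.

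With each library left out in turn, nuclear members higher ranged from 15 to 53 at D0 (mt- 1 to 3), from 2 to 20 at D2 (mt- 0 to 4, the 0 without D2-2), from 50 to 58 in dividing cells (mt- 1), from 45 to 58 in mural-like cells (mt- 3 to 9), and from 57 to 62 in cluster 8 (mt- lower 6 to 8). The ranges were 19 to 27 higher and 24 to 30 lower in endothelial-like cells (mt- 0 to 1), and 23 to 28 higher and 22 to 28 lower in neutrophil-like cells (mt- lower 13).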

Other observations

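The low-UMI cells left unnamed (cluster 7, led by Pf4 and the haemoglobin gene Hba-a2) had a nuclear share of 2.05% and an mt- share of 4.21% of UMIs on average over 8 libraries, both above non-dividing microglia. Lymphoid-like cells had more nuclear than mt- UMIs, with a ratio of 1.23 over 2 D0 libraries. In neutrophil-like cells the ratio averaged 1.23 over 7 libraries but varied between them. It was 0.654 to 0.917 in Ctrl, 0.896 to 1.68 at D0 and 1.40 to 1.63 at D2, with Ctrl and D0 overlapping. This class joins clusters 10 and 13, with mt- shares of 0.813% and 0.639%. They held 90 and 0 cells in Ctrl-2 and 18 and 15 in Ctrl-3. At D0 they held 95 and 16, 268 and 249, and 140 and 34, and at D2 44 and 43, and 80 and 79. A change within the cells cannot be told apart here from a change in their mix. The ratio was 0.486 in non-dividing microglia over 8 libraries and 0.462 in mural-like cells over 6. Cox6a2 averaged 46.9 CPM in lymphoid-like cells, from 12 UMIs in all.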
